A study of Mus musculus with 16 samples.

Results

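Ribosome biogenesis factors are the proteins that transcribe ribosomal RNA, modify and cut it, and assemble it with ribosomal proteins into the small and the large subunit. A list of 34 such genes was given by symbol, and 33 of them matched a row of the deposited table of 20056 gene symbols. For the symbol Utp4, a row under its older name Cirh1a was found, which is given apart and counted nowhere. The study addressed what miR-9-1 does in the marrow surroundings in which lymphocytes form, and sequenced poly(A)-selected RNA of sorted osteoblasts (OBs) and sorted mesenchymal stem cells (MSCs). Of the 8 mice, 4 were miR-9-1-deficient, with the microRNA locus Mir9-1 disrupted by CRISPR/Cas9 editing, and 4 were wild-type. The groups were miR-9-1-deficient OBs, wild-type OBs, miR-9-1-deficient MSCs and wild-type MSCs, with 4 libraries each. The labels name no sort gate, strain, age or sex. Mice E to H are miR-9-1-deficient and A to D wild-type, and 1 animal number names 1 OB and 1 MSC library.

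Ribosomes are built in the nucleolus. RNA polymerase I transcribes a long precursor from the ribosomal DNA, small nucleolar RNAs in box C/D and box H/ACA particles guide its methylation and pseudouridylation, and separate sets of assembly factors carry the small and the large subunit through cutting and folding. The demand for new ribosomes follows cell growth, so these genes are known to be high in dividing cells, and many of them are known targets of the transcription factor Myc. In bone marrow, dividing blood progenitors are known to be rich in these transcripts.

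All values are the authors' normalized counts, and each group is given by its 4 libraries in the order of the mouse letters. Fold changes are log2 of the normalized count plus 1, with the standard error, from limma, and a gene passed at an adjusted p under 0.05 over all genes tested. Recovered reads numbered 15543693 to 18962771 per OB library and 10148197 to 14246986 per MSC library. Mir9-1 held 0 to 3 reads in miR-9-1-deficient OB libraries, 0 to 16 in wild-type OB libraries and 0 in all 8 MSC libraries. A count of 0 allows up to 3 reads of that library, counting error only. The loss of Mir9-1 could therefore not be checked in MSCs at this depth.

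The cell type labels were checked against markers. Col1a1, the main bone collagen gene, lay at 8330.2 to 50379 normalized counts in miR-9-1-deficient OB libraries and at 88879 to 198771 in wild-type OB libraries, against 150990 to 402536 in miR-9-1-deficient and 604933 to 813054 in wild-type MSC libraries. Of 13 osteoblast markers tested, 7 were lower and 0 higher in OB than in MSC libraries of miR-9-1-deficient mice, and 8 lower and 1 higher in wild-type mice. Kit, the stem cell factor receptor of blood progenitors, was at 3658 to 4362 in miR-9-1-deficient and 3807 to 4565 in wild-type OB libraries, against 339.9 to 737 in miR-9-1-deficient and 387 to 574 in wild-type MSC libraries. OB libraries thus held osteoblast transcripts, but most of these markers were lower there than in MSC libraries. The markers do not set OB libraries apart as richer in osteoblast transcripts than MSC libraries. OB and MSC are used here as the names of the libraries. All 8 OB libraries held both the X-inactivation transcript Xist (3719.5 to 8053) and the Y-linked gene Ddx3y (649 to 1939). Among MSC libraries, E, F and A held much Ddx3y and little Xist, and G, H, B, C and D the reverse. Under the numbers G, H, B, C and D, Ddx3y was 649 to 817 in OB libraries and 29.8 to 78.1 in MSC libraries. Under E, F and A, Xist was 3719.5 to 4652 in OB libraries and 291 to 392 in MSC libraries. OB and MSC libraries of 1 animal number thus differed in these transcripts. Whether each OB library came from 1 mouse alone was not tested, so OB libraries are not shown to stand for separate mice. The p-values measure only the spread between these libraries. Mouse letters stand for animal numbers here, and results given for mice of a genotype are comparisons of libraries. In bulk RNA, fewer cells of a type and less RNA per cell cannot be told apart.

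The sequence behind the genotype is the mature microRNA. The 3 mouse loci Mir9-1, Mir9-2 and Mir9-3 give the same mature forms, printed here from RefSeq (GRCm38.p6) with the seed, bases 2 to 8, in capitals, and Mir9-1 makes its 5p arm from chromosome 3, 88215613 to 88215635, plus strand.
miR-9-5p: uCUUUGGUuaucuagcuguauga
miR-9-3p: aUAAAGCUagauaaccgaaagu
The letters that pair with the miR-9-5p seed, ACCAAAG, were searched on the transcript strand of each gene's longest 3′ UTR (GENCODE vM21, GRCm38/mm10). They occurred in 5 of the 33 members (15.2%) and in 1939 of 13877 genes tested that have such a UTR (14%), so the share among members lay near that of all genes. The first match in each of the 5 is shown with its flanks, the match in capitals.
Nop58: gatagctcatcACCAAAGctggaattttc
Polr1a: ctgctgcagctACCAAAGgagagtcctca
Ncl: agctattctcaACCAAAGaccctctgtag
Nolc1: ttgggcccggcACCAAAGcttctagaagc
Nop16: ggaacaacgaaACCAAAGccaggctgtaa
Nop14, the member with the smallest p in MSCs, has a 3′ UTR of 78 bases without these letters. A match is a description of the letters and no evidence of binding.

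The promoters of 4 members are shown because they pair the members that passed in MSCs, Nop58 and Nop14, with members that hold the E-box letters CACGTG, which Myc with its partner Max is known to bind. Each runs from 250 bases before to 50 after an annotated start (RefSeq, GRCm38.p6), with CACGTG in capitals. The letters read the same on both strands.
Nop58, chr1:59684756-59685055, plus strand: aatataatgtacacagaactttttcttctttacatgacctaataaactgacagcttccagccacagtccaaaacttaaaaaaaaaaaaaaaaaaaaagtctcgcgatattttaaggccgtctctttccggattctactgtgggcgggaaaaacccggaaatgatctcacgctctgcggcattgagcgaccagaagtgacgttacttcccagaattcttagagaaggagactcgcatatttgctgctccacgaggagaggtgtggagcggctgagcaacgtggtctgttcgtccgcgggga
Nop14, chr5:34660099-34660398, minus strand: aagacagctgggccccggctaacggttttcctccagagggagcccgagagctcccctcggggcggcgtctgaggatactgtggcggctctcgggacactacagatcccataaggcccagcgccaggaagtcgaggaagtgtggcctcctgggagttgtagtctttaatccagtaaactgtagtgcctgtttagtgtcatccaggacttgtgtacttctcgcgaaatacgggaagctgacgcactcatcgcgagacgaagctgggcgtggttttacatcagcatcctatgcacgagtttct
Utp20, chr10:88826765-88827064, minus strand: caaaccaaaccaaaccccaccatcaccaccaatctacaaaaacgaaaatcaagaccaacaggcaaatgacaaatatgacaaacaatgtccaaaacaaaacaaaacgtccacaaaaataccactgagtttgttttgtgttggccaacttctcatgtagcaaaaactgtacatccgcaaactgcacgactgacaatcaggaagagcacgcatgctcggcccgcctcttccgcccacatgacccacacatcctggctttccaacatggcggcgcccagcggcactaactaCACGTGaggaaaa
Rrn3, chr16:13780449-13780748, plus strand: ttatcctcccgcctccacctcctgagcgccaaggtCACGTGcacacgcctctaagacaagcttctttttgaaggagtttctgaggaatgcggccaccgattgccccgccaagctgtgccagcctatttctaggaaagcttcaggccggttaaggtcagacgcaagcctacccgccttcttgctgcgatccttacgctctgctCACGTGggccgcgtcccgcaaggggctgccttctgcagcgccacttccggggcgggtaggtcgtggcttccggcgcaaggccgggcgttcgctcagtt
The promoter table matched 27 of the 33 members. CACGTG occurred in 6 of these 27 (22.2%), namely Nop2, Pes1, Rrn3, Utp18, Utp20 and Wdr43, and in 2187 of 27025 genes in the table (8.09%). The 27025 genes were not limited to genes tested here or matched to the members in expression or base composition. Whether the members differ from such matched genes was not tested. Rrn3 held it at 2 places, as 0.681% of all genes do. Neither Nop58 nor Nop14 held it in this window.

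**Figure D1:**
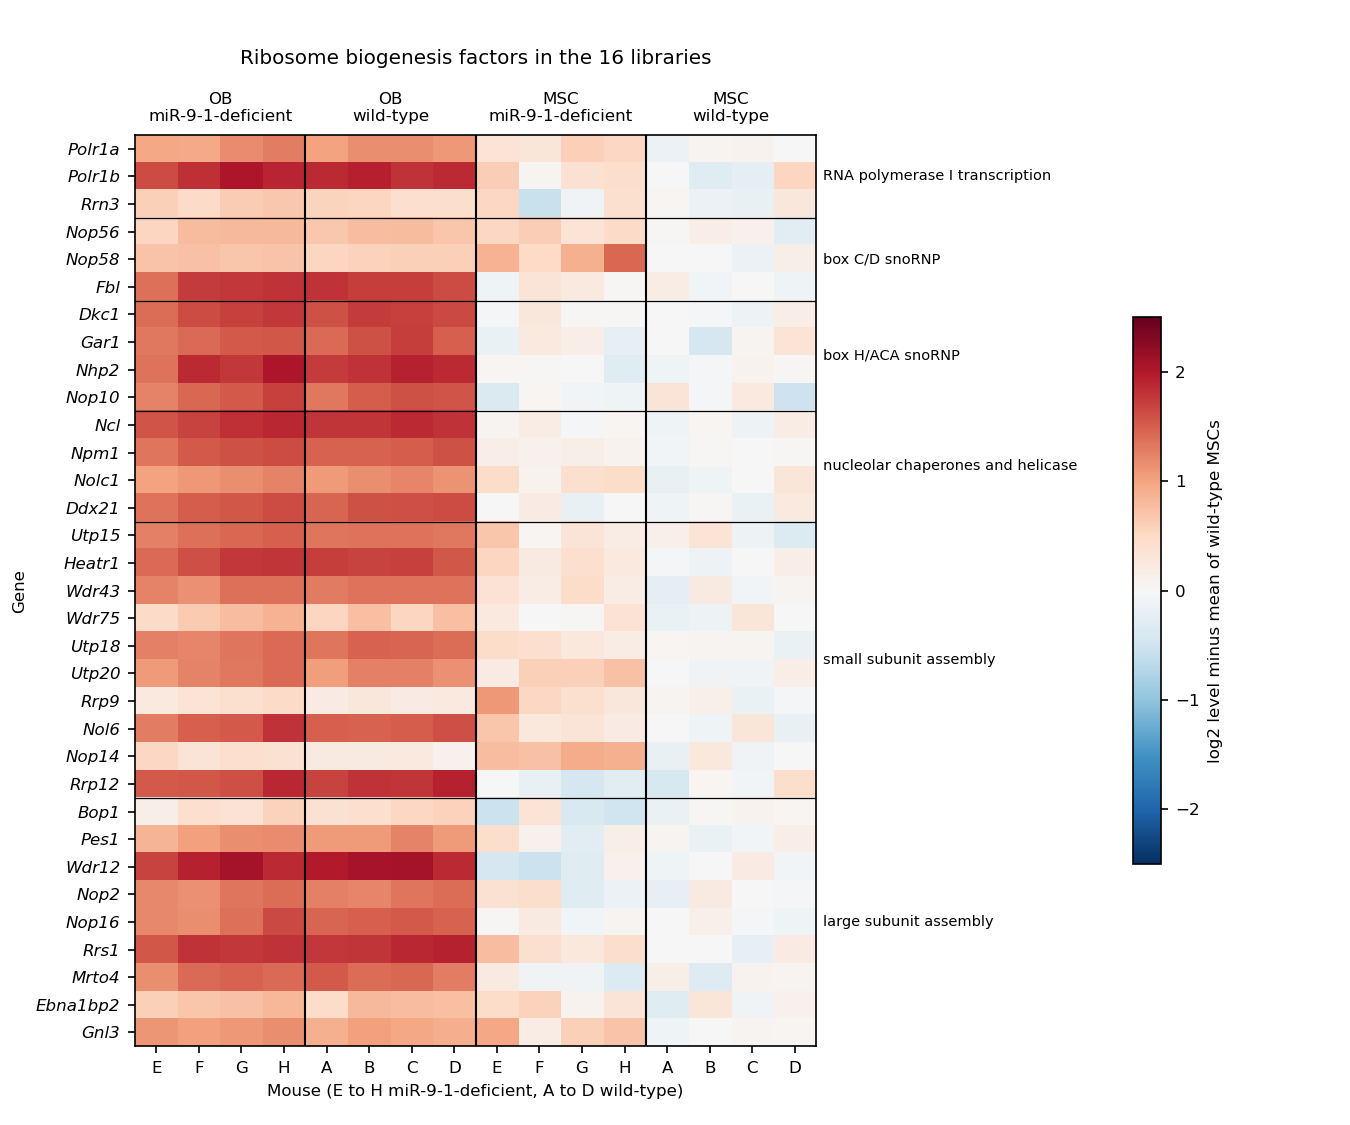
Log2 level of the 33 ribosome biogenesis factors (rows, by role) in the 16 libraries (columns, by group and mouse), each minus the mean of the 4 wild-type MSC libraries of that gene. OB columns are redder than MSC columns for most genes. In the rows of Nop14, Nop58 and Rrp9, miR-9-1-deficient MSC libraries reach or pass the OB libraries of the same genotype.

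In MSCs, 2 of the 33 members rose in miR-9-1-deficient mice and 0 fell, while among all 14964 genes tested 0.501% rose and 0.561% fell. The pair was Nop14 and Nop58. The fold change was positive for 27 of the 33 members, with a median of 0.16, against 7083 of 14964 genes and a median of -0.03 over all genes tested. The groups did not overlap for 11 members, all of them higher in the miR-9-1-deficient libraries, where 6.30% of all genes were higher without overlap and 6.10% lower. At an unadjusted p under 0.05, 12 members were higher and 0 lower, among 1601 higher and 1804 lower genes in all.

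Nop14 (chromosome 5, 34638536 to 34660148, minus strand, GRCm38/mm10), a protein of the small subunit processome, had 1019, 987, 1144 and 1105 normalized counts in miR-9-1-deficient MSC libraries, against 527, 722, 566 and 592 in wild-type MSC libraries. All 4 deficient libraries lay above all 4 wild-type ones. The fold change was 0.83 ± 0.14, adjusted p = 0.0286, with means of 1064 ± 72.9 in miR-9-1-deficient and 602 ± 84.6 in wild-type libraries (SD, n = 4 each). Nop58 (chromosome 1, 59684971 to 59719044, plus strand), a core protein of box C/D particles, had 3412, 2643, 3465 and 5053 normalized counts in miR-9-1-deficient MSC libraries, against 1857, 1875, 1681 and 2075 in wild-type MSC libraries. Mouse H stood highest and mouse F lowest among the deficient libraries, and F was still above every wild-type library. Its fold change was 0.92 ± 0.18, adjusted p = 0.041, with 3643 ± 1012 in miR-9-1-deficient and 1872 ± 161 in wild-type libraries.

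The next 3 members by p did not pass. Gnl3 (chromosome 14, 31012433 to 31019152, minus strand), nucleostemin, a nucleolar GTPase of large subunit assembly, had 1972, 1156, 1537 and 1661 normalized counts in miR-9-1-deficient MSC libraries, against 934, 1011, 1058 and 1049 in wild-type MSC libraries (0.62 ± 0.16, adjusted p = 0.0802). Nop56, the partner of Nop58 in box C/D particles, had 1911, 2039, 1691 and 1860.1 normalized counts in miR-9-1-deficient MSC libraries, against 1361, 1497, 1434 and 1102 in wild-type MSC libraries (0.48 ± 0.13, adjusted p = 0.0872). Utp20, a scaffold protein of the small subunit processome, had 729, 946, 953 and 1046 normalized counts in miR-9-1-deficient MSC libraries, against 627, 594, 591 and 706 in wild-type MSC libraries (0.53 ± 0.15, adjusted p = 0.0872). For these 3 genes the groups did not overlap either, and mouse F was the lowest deficient library for Gnl3 and the highest for Nop56. Polr1a, the catalytic subunit of RNA polymerase I, had 713, 691, 849.7 and 801 normalized counts in miR-9-1-deficient MSC libraries, against 502, 590.4, 591 and 559 in wild-type MSC libraries (0.44 ± 0.14, adjusted p = 0.108), again without overlap. Rrp9, a protein of the U3 particle, Rrs1, a large subunit factor, Heatr1 and Utp18, both of the small subunit processome, and Nolc1 and Nol6 followed, with fold changes of 0.57 ± 0.20, 0.47 ± 0.16, 0.36 ± 0.14, 0.33 ± 0.15, 0.35 ± 0.15 and 0.37 ± 0.16 and adjusted p-values of 0.129 to 0.208.

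Transcripts of Npm1, Ncl and Fbl had small fold changes, none past the test. Npm1, nucleophosmin, a histone and ribosomal protein chaperone, had 3777, 3609.8, 3725 and 3543 normalized counts in miR-9-1-deficient MSC libraries, against 3199, 3428, 3372 and 3432 in wild-type MSC libraries, and although the groups did not overlap, the fold change was 0.13 ± 0.11, adjusted p = 0.508. Ncl, nucleolin, had 9793, 10497, 9150.2 and 9659 normalized counts in miR-9-1-deficient MSC libraries, against 8588, 9658, 8509 and 10515 in wild-type MSC libraries, with overlap (0.07 ± 0.13, adjusted p = 0.777, 95% interval -0.22 to 0.37). Fbl, fibrillarin, the methyltransferase that works with Nop56 and Nop58, had 273, 371, 352 and 299.5 normalized counts in miR-9-1-deficient MSC libraries, against 336, 281, 293 and 274 in wild-type MSC libraries, with overlap (0.12 ± 0.18, adjusted p = 0.705, 95% interval -0.26 to 0.51). So within the box C/D particle the fold changes were 0.92 for Nop58, 0.48 for Nop56 and 0.12 for Fbl, and the difference between them was not tested. The 4 box H/ACA proteins lay between -0.12 ± 0.21 (Nop10) and 0.08 ± 0.14 (Dkc1), none past the test. The 6 members with a negative fold change were Wdr12, Bop1, Rrp12, Nop10, Mrto4 and Nhp2, down to -0.29 ± 0.24 for Wdr12.

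The calls in MSCs did not hold when most single libraries were left out, while the fold changes stayed at 0.77 to 0.92 for Nop14 and 0.75 to 0.98 for Nop58. Without any single one of A, B, C, D, E, G or H, 0 members passed, with adjusted p-values for Nop14 of 0.0712 to 0.102 and for Nop58 of 0.0888 to 0.12, and at most 12 genes of the whole table passed in those fits. Without F, 5 members passed (Nop14, Nop58, Gnl3 and Polr1a higher, Bop1 lower), beside 15.3% of all genes. Skeletal muscle markers summed to 1556 normalized counts in deficient library G and 6003 in H, against 239 and 409 in E and F and 164 to 452 in wild-type libraries, and of the 11 markers 0 were at 0 in all deficient MSC libraries and 1, Myh4, in all wild-type ones. Of 12 B lineage markers tested 4 fell, with sums of 2184 to 3712 in deficient and 3175 to 3995 in wild-type MSC libraries, and of 13 osteoblast markers 4 fell. The B lineage markers had a median fold change of -1.79, with 11 negative and 10 lower without overlap. The osteoblast markers had a median of -1.19, with 11 negative and 7 lower without overlap. Among all genes tested, 6.10% were lower without overlap. Other blood cell markers passed for 0 genes. Fold changes were negative for 14 of 16 blood progenitor markers (median -0.43) and 7 of 9 macrophage and monocyte markers (median -0.83). They were negative for 8 of 10 neutrophil markers (median -0.38) and 6 of 12 erythroid markers, beside 7881 of 14964 genes. The part of these blood cell and osteoblast lists in the result was not tested. Without G and H, or with the muscle level as a covariate, 0 members passed, while Nop14 stood at 0.75 ± 0.19 and 0.73 ± 0.16 and Nop58 at 0.69 ± 0.17 and 0.70 ± 0.17. With the Ddx3y level as a covariate, Nop14 passed and Nop58 did not (0.99 ± 0.18, adjusted p = 0.0602). More members passed, all higher, in fits that also called more of all genes, 6 with DESeq2 (7.89% of all genes), 11 with all 16 libraries in 1 fit (14.4%) and 4 without E and F (6.95%).

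**Figure D2:**
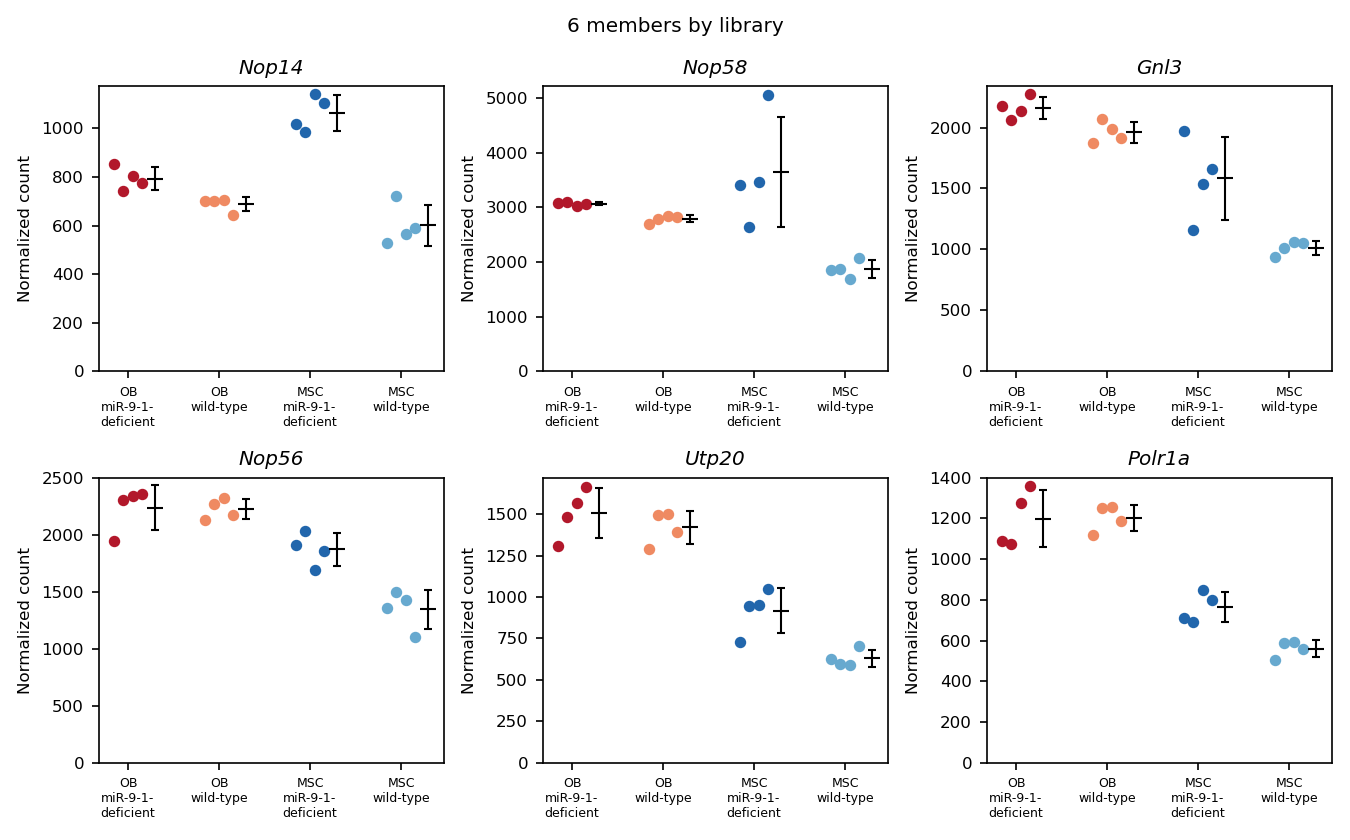
Normalized counts of 6 members in each library (points), with the mean and SD of the 4 libraries (line and bar), by group. Deficient MSC libraries of Nop14 lie above every other group, and for all 6 genes they lie above wild-type MSC libraries.

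In OBs, 0 of the 33 members passed between miR-9-1-deficient and wild-type libraries, where 0.0211% of 14229 genes tested were higher and 0.00703% lower. edgeR and DESeq2 also gave 0 members, while DESeq2 called 112 genes higher and 79 lower (1.34% of all genes). The median fold change was -0.02 over the members and -0.02 over all genes. It was positive for 12 members and negative for 21, and for 6239 and 7990 of 14229 genes. At an unadjusted p under 0.05, 3 members were higher and 0 lower, among 594 higher and 680 lower genes in all. The 3 were Nop58, Nop14 and Gnl3, which also had the 3 smallest p-values of the members in the MSC libraries of the same animal numbers. Nop58 and Nop14 did not overlap between the groups, against 2.47% of all genes higher without overlap and 2.99% lower.

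Nop58 had 3074, 3098, 3030.1 and 3069.6 normalized counts in miR-9-1-deficient OB libraries, against 2699, 2792, 2839 and 2832 in wild-type OB libraries, close together within each group (0.14 ± 0.04, adjusted p = 0.379). Nop14 had 855, 743, 803 and 774 normalized counts in miR-9-1-deficient OB libraries, against 702, 702, 704 and 645 in wild-type OB libraries (0.21 ± 0.07, adjusted p = 0.394), and library D was the lowest of the wild-type ones. Gnl3 had 2173, 2063, 2134 and 2274 normalized counts in miR-9-1-deficient OB libraries, against 1873, 2069.9, 1990.4 and 1912 in wild-type OB libraries (0.14 ± 0.06, adjusted p = 0.486), where deficient F lay below wild-type B. Rrp12, an export factor of pre-ribosomes known from yeast, had 1151, 1167, 1216 and 1475 normalized counts in miR-9-1-deficient OB libraries, against 1283, 1396, 1370.4 and 1509 in wild-type OB libraries (-0.15 ± 0.09, adjusted p = 0.629), and H was the only deficient library above most wild-type ones. Utp18, of the small subunit processome, had 986, 956, 1030.0 and 1088 normalized counts in miR-9-1-deficient OB libraries, against 1039, 1132, 1120.3 and 1078 in wild-type OB libraries (-0.11 ± 0.06, adjusted p = 0.636), with overlap. The intervals in OBs were narrow: for Ncl the fold change was -0.07 ± 0.08 (95% interval -0.25 to 0.11) and for Npm1 0.00 ± 0.07 (-0.15 to 0.16). Such intervals measure the spread between OB libraries, which may not each stand for 1 mouse, so they may understate the spread between mice.

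Deficient OB libraries differed among themselves in the same direction for most members. Mouse E was the lowest of the 4 for 24 of 33 members and mouse H the highest for 27. The members took 0.643%, 0.701%, 0.753% and 0.809% of reads in E, F, G and H. The 14 marrow stroma markers summed to 26035, 45284, 13743 and 7614 in the same order, against 9266 to 14278 in wild-type OB libraries. The 14 osteoblast markers summed to 83930, 126498, 111154 and 24056, against 176053 to 377722 in wild-type OB libraries. Of 13 osteoblast markers tested between genotypes, 12 were negative and 1 positive, with a median fold change of -1.49. Of these, 1 passed as lower (0.00703% of all genes), and 6 were lower without overlap (2.99%). Cell cycle genes summed to 43313 in E, the lowest, and 59164 in H, the highest. The part of these markers in the result was not tested beyond 2 fits: without E and F the median of the members was 0.07, and with the stroma level as a covariate 0.03, with 0 members passing in both. Those fits called 88 of 13876 and 253 of 14229 genes.

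The genotype effect in OBs minus that in MSCs passed for 0 of 33 members, where 0.00643% of 15556 genes passed in each direction. It was negative for 27 of 33 members and for 7233 of 15556 genes, with a median of -0.20 against 0.04 over all genes tested. Of the members, 11 were negative and 0 positive at an unadjusted p under 0.05, beside 929 negative and 857 positive genes in all. Nop14 differed by -0.62 ± 0.14, adjusted p = 0.223 and Nop58 by -0.79 ± 0.19, adjusted p = 0.223. Rrs1 had 1255, 1484, 1453 and 1486 normalized counts in miR-9-1-deficient OB libraries, against 1448, 1479, 1575 and 1626 in wild-type OB libraries. In MSCs it had 732, 562, 514 and 580.1 normalized counts in miR-9-1-deficient MSC libraries, against 427, 422, 371 and 493 in wild-type MSC libraries, and the effects differed by -0.58 ± 0.16, adjusted p = 0.261. The OB groups of Rrs1 overlapped, and its deficient MSC libraries lay above the wild-type ones. Utp18, which had 563, 550.3, 488 and 466 normalized counts in miR-9-1-deficient MSC libraries, against 420.5, 427, 427 and 364 in wild-type MSC libraries, differed by -0.44 ± 0.13, adjusted p = 0.291, and Nop56, with 1948, 2311, 2347 and 2365 normalized counts in miR-9-1-deficient OB libraries, against 2136, 2272, 2330.2 and 2175 in wild-type OB libraries, by -0.48 ± 0.14, adjusted p = 0.291. edgeR called 0 members. DESeq2 called 2, Nop58 and Nop14, beside 0.913% of all genes, and without deficient MSC library F limma called 3, Nop58, Nop14 and Gnl3, beside 3.69% of all genes. The OB and MSC effects are thus not shown to differ by the main test.

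**Figure D3:**
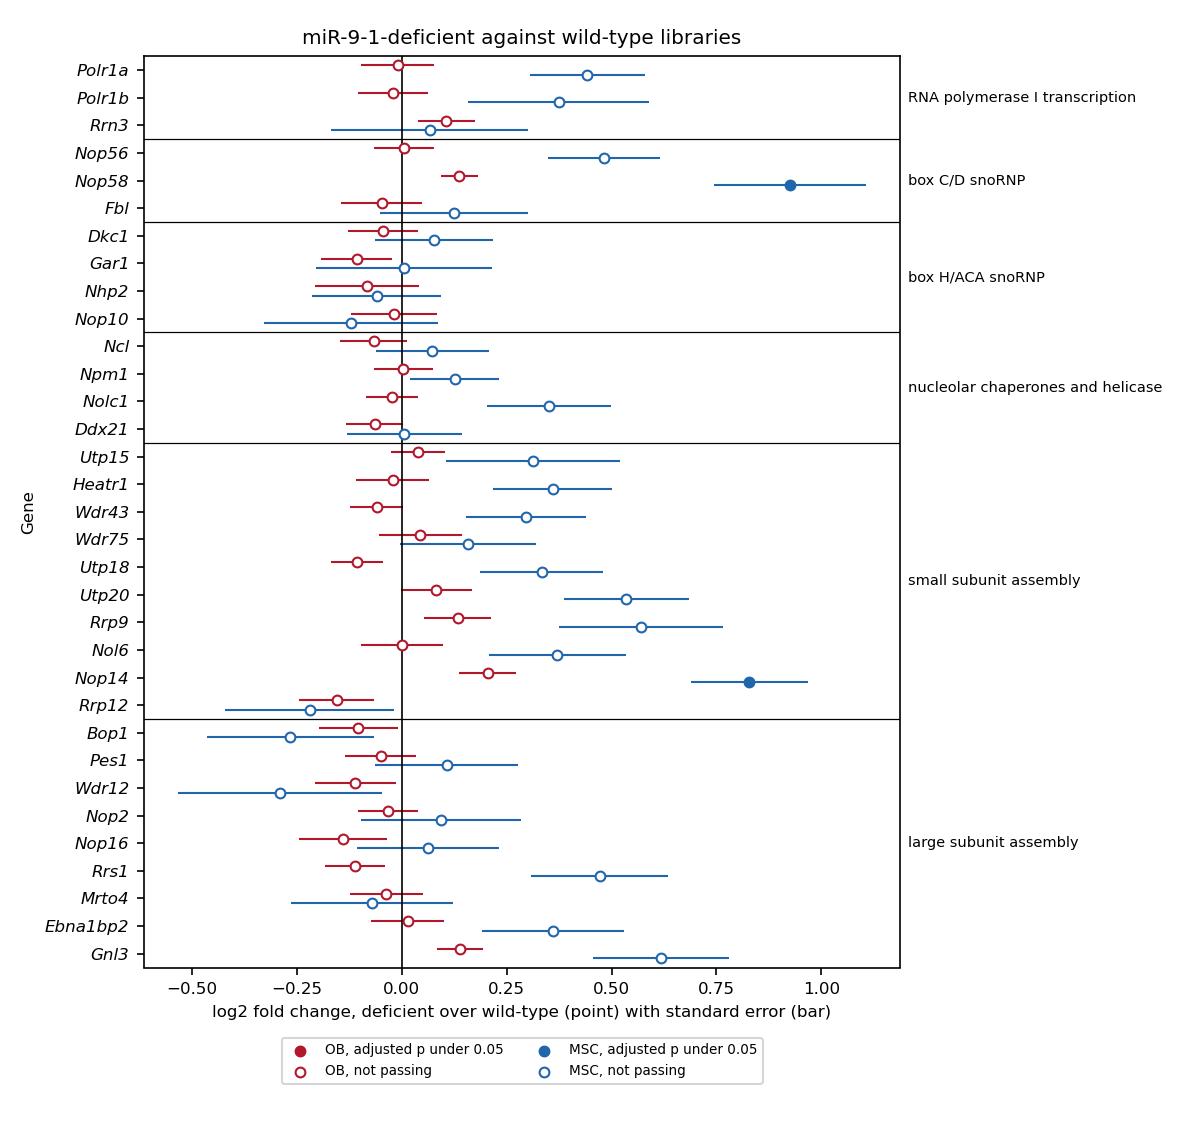
Log2 fold change of miR-9-1-deficient over wild-type libraries with its standard error for the 33 members, in OBs (red) and MSCs (blue), by role. Filled points passed at an adjusted p under 0.05. Only Nop58 and Nop14 in MSCs are filled, and OB points lie near 0.

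Between cell types the members differed much more. In miR-9-1-deficient mice 28 of 33 members were higher in OB than in MSC libraries and 1 was lower, where 29% of 14692 genes were higher and 30.6% lower. In wild-type mice 31 were higher and 0 lower, where 34.4% of 14696 genes were higher and 35.5% lower. The median fold change was 1.15 and 1.41, against -0.02 and 0.01 over all genes tested. Groups did not overlap, with OB libraries higher, for 27 members in miR-9-1-deficient mice (28.0% of all genes) and 32 in wild-type mice (32.6%). In deficient mice 1 member was lower without overlap (27.1% of all genes), and in wild-type mice 0 were (32.9%). All 8 OB libraries lay above all 8 MSC libraries for 25 of 33 members, as they did for 21.2% of 15556 genes.

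As a share of all reads, the members together took 0.643 to 0.809% in miR-9-1-deficient and 0.675 to 0.746% in wild-type OB libraries, against 0.221 to 0.269% in miR-9-1-deficient and 0.167 to 0.196% in wild-type MSC libraries. The scale matters for single genes. OB libraries had lower totals of normalized counts (11682900 to 12690400) than MSC libraries (14828700 to 18429600), and with equal totals the median over all genes moved to 0.42 in miR-9-1-deficient and 0.50 in wild-type mice. Fold changes of members near the low end moved by over 1.5 times, for example Bop1 to 1.09 and Wdr75 to 0.98 in miR-9-1-deficient mice and Rrn3 to 0.98 in wild-type mice. Relative to the median over all genes, the members' median was 1.18 in both scalings in miR-9-1-deficient mice, and 1.39 and 1.40 in wild-type mice. With equal totals, calls over all genes were 6553 higher and 2869 lower for miR-9-1-deficient mice, against 4261 and 4500 with the authors' factors, and 7457 and 3590 in wild-type mice, against 5054 and 5217.

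**Figure D4:**
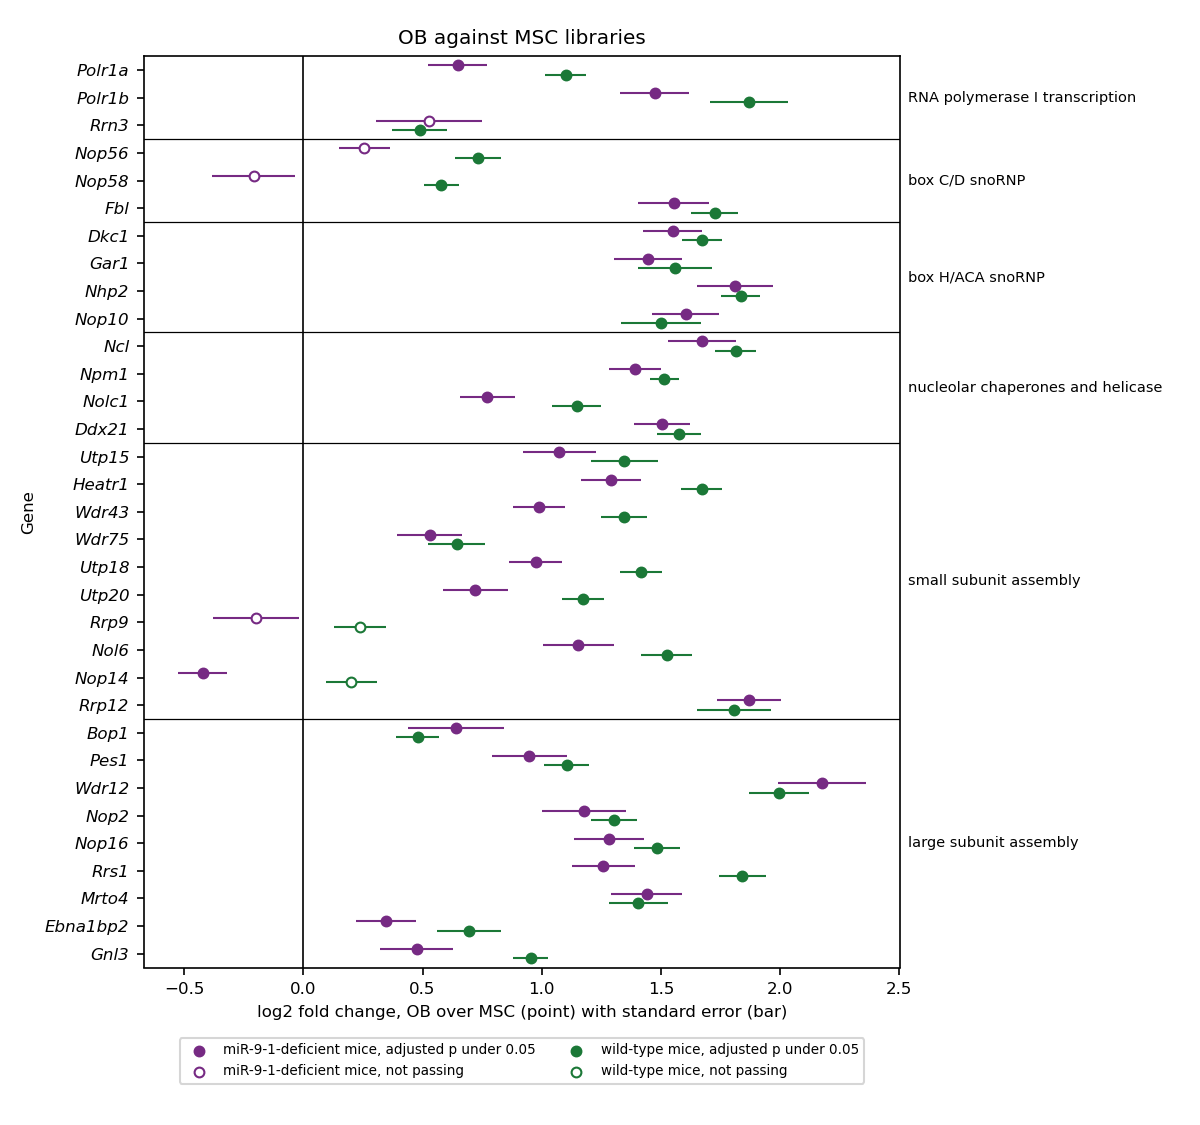
Log2 fold change of OB over MSC libraries with its standard error for the 33 members, in miR-9-1-deficient mice (purple) and wild-type mice (green), by role. Filled points passed at an adjusted p under 0.05. Most points lie well above 0, and Nop58, Rrp9 and Nop14 lie near or below 0 in miR-9-1-deficient mice.

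Both RNA polymerase I subunits were higher in OB libraries in both genotypes. Polr1a had 1089, 1073, 1276 and 1358 normalized counts in miR-9-1-deficient and 1117, 1251, 1255 and 1186 in wild-type OB libraries, all above every MSC library of that gene, with fold changes of 0.65 ± 0.12 in miR-9-1-deficient mice and 1.10 ± 0.09 in wild-type mice. Polr1b, the other large subunit of the enzyme, changed by 1.47 ± 0.15 in miR-9-1-deficient mice and 1.87 ± 0.16 in wild-type mice. Rrn3, the factor that brings the polymerase to the promoter, had 771, 709.9, 794 and 812 normalized counts in miR-9-1-deficient OB libraries, 751, 737, 686 and 691 in wild-type OB libraries, 730.1, 345, 478 and 677 in miR-9-1-deficient MSC libraries and 526, 458, 451 and 624 in wild-type MSC libraries. Its deficient MSC libraries spread widely, with F lowest and E highest, and it passed in wild-type mice (0.49 ± 0.12, adjusted p = 0.00301) but not in miR-9-1-deficient mice (0.53 ± 0.22, adjusted p = 0.0629). It passed there with the mouse as a block (0.53 ± 0.18, adjusted p = 0.0313), with all 16 libraries in 1 fit (0.0192), and without deficient MSC library E or H (0.0227 and 0.0422).

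All 3 box C/D proteins were higher in OB libraries of wild-type mice, and 1, Fbl, also in miR-9-1-deficient mice. Fbl had 772, 990.0, 1011 and 1036 normalized counts in miR-9-1-deficient OB libraries, 1034, 978, 985 and 915 in wild-type OB libraries, 273, 371, 352 and 299.5 in miR-9-1-deficient MSC libraries and 336, 281, 293 and 274 in wild-type MSC libraries, with every OB library above every MSC library, and rose by 1.55 ± 0.15, adjusted p = 4.04e-05 in miR-9-1-deficient mice, and 1.73 ± 0.10, adjusted p = 8.97e-08 in wild-type mice. Nop56 had 1948, 2311, 2347 and 2365 normalized counts in miR-9-1-deficient and 2136, 2272, 2330.2 and 2175 in wild-type OB libraries, so that deficient OB library E lay within the deficient MSC range. Its fold change was 0.26 ± 0.11, adjusted p = 0.0655 in miR-9-1-deficient mice, and 0.73 ± 0.10, adjusted p = 4.90e-05 in wild-type mice, and it passed in miR-9-1-deficient mice without OB library E or MSC library F (adjusted p = 0.034 and 0.0388). Nop56 passed there also with edgeR (0.0284), DESeq2 (0.0411), all 16 libraries in 1 fit (0.0375), quantile normalization (0.0063) and equal totals (6.0e-04). Nop58 rose in wild-type mice (0.58 ± 0.07, adjusted p = 3.95e-05). In miR-9-1-deficient mice its value was -0.21 ± 0.18, adjusted p = 0.327, and the sign turned to 0.24 with equal totals and 0.07 with quantile normalization.

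Box H/ACA proteins rose in both genotypes, all 4 without overlap. Dkc1, dyskerin, the pseudouridine synthase, had 1569.9, 1863, 1969 and 2034 normalized counts in miR-9-1-deficient OB libraries, 1802, 2002, 1963 and 1872 in wild-type OB libraries, 579.9, 732, 614 and 609 in miR-9-1-deficient MSC libraries and 598, 585, 545 and 670.2 in wild-type MSC libraries. Its fold changes were 1.55 ± 0.12, adjusted p = 1.62e-05 in miR-9-1-deficient mice, and 1.67 ± 0.08, adjusted p = 3.57e-08 in wild-type mice. Nhp2, an RNA-binding partner, had 1047, 1491, 1379 and 1651 normalized counts in miR-9-1-deficient OB libraries, 1374, 1424, 1547 and 1479 in wild-type OB libraries, 424, 415, 403 and 329 in miR-9-1-deficient MSC libraries and 379, 401, 432 and 418 in wild-type MSC libraries. It rose by 1.81 ± 0.16, adjusted p = 2.64e-05 in miR-9-1-deficient mice, and 1.84 ± 0.08, adjusted p = 1.79e-08 in wild-type mice, and deficient OB library E was its lowest OB library. Nop10 and Gar1, the other partners, changed by 1.60 ± 0.14 in miR-9-1-deficient mice and 1.5 ± 0.17 in wild-type mice for Nop10, and by 1.45 ± 0.14 in miR-9-1-deficient mice and 1.56 ± 0.15 in wild-type mice for Gar1.

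Nucleolar chaperones and the helicase rose too. Npm1 had 8469.7, 9655, 10087 and 10367 normalized counts in miR-9-1-deficient and 9340.3, 9383, 9597 and 10062 in wild-type OB libraries, against the MSC values given above, with no overlap. Its fold changes were 1.39 ± 0.11, adjusted p = 1.5e-05 in miR-9-1-deficient mice, and 1.51 ± 0.06, adjusted p = 1.02e-08 in wild-type mice. Ncl had 27597, 30082, 32896 and 34423 in miR-9-1-deficient and 32126, 31888, 33802 and 32680.1 in wild-type OB libraries, and rose by 1.67 ± 0.14, adjusted p = 2.16e-05 in miR-9-1-deficient mice, and 1.81 ± 0.09, adjusted p = 2.51e-08 in wild-type mice. With quantile normalization Ncl stood at 2.81 and 2.77 in the same order. Ddx21, an RNA helicase of RNA polymerase I transcription and processing, had 5599, 6221, 6391 and 6709 normalized counts in miR-9-1-deficient OB libraries, 6013, 6556, 6675 and 6784 in wild-type OB libraries, 2173, 2517, 1914 and 2195 in miR-9-1-deficient MSC libraries and 2030.1, 2218, 1932 and 2597 in wild-type MSC libraries. Every OB library lay far above every MSC library, and the fold changes were 1.51 ± 0.12, adjusted p = 1.46e-05 in miR-9-1-deficient mice, and 1.58 ± 0.09, adjusted p = 1.21e-07 in wild-type mice. Nolc1, a chaperone of box C/D and H/ACA particles, changed by 0.77 ± 0.12 in miR-9-1-deficient mice and 1.15 ± 0.10 in wild-type mice.

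Of the 10 small subunit factors, 8 were higher in OB libraries in both genotypes, and Nop14 and Rrp9 were not. Heatr1, a scaffold of early processome assembly, had 1423, 1617, 1817 and 1835 normalized counts in miR-9-1-deficient OB libraries, 1769, 1716, 1729 and 1551 in wild-type OB libraries, 774, 617, 714 and 628 in miR-9-1-deficient MSC libraries and 509, 488, 536 and 592 in wild-type MSC libraries. It rose without overlap by 1.29 ± 0.13, adjusted p = 4.46e-05 in miR-9-1-deficient mice, and 1.67 ± 0.09, adjusted p = 4.53e-08 in wild-type mice. Rrp12 had 396, 349, 297 and 326 normalized counts in miR-9-1-deficient and 298, 409, 375 and 536 in wild-type MSC libraries, far below its OB values given above, and rose by 1.87 ± 0.13, adjusted p = 1.01e-05 in miR-9-1-deficient mice, and 1.81 ± 0.15, adjusted p = 1.69e-06 in wild-type mice. Utp15, Wdr43, Wdr75, Utp18, Utp20 and Nol6 also passed in both genotypes, from 0.53 ± 0.14 (Wdr75) to 1.15 ± 0.15 (Nol6) in miR-9-1-deficient mice and from 0.64 ± 0.12 (Wdr75) to 1.52 ± 0.11 (Nol6) in wild-type mice. Nop14 was the 1 member that fell in miR-9-1-deficient mice (-0.42 ± 0.10, adjusted p = 0.0061), where its 4 OB libraries (743 to 855) lay below its 4 MSC libraries (987 to 1144), but its sign turned to 0.03 with equal totals. In wild-type mice Nop14 was at 0.20 ± 0.11, adjusted p = 0.117, with overlap, and passed without MSC library B (adjusted p = 0.0146).

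Rrp9 had 381, 409, 423 and 449 normalized counts in miR-9-1-deficient OB libraries, 369, 392, 372 and 379.6 in wild-type OB libraries, 679.6, 460.1, 425 and 389 in miR-9-1-deficient MSC libraries and 337, 348, 286 and 314 in wild-type MSC libraries. It did not pass in miR-9-1-deficient mice (-0.20 ± 0.18, adjusted p = 0.359, 0.25 with equal totals) or in wild-type mice (0.24 ± 0.11, adjusted p = 0.0743, adjusted p = 0.0497 without MSC library B), and deficient MSC library E was the highest of all 16. Cirh1a, the older name of Utp4, a processome protein, changed by 0.80 ± 0.21 in miR-9-1-deficient mice and 1.02 ± 0.09 in wild-type mice, and its genotype fold change did not pass (0.05 ± 0.08, adjusted p = 0.875 in OBs, and 0.27 ± 0.22, adjusted p = 0.482 in MSCs).

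Large subunit factors all passed in both genotypes. Wdr12, which forms the PeBoW complex with Pes1 and Bop1, had 470.2, 554, 621 and 531 normalized counts in miR-9-1-deficient OB libraries, 581, 607, 623 and 531 in wild-type OB libraries, 108, 101, 118 and 158 in miR-9-1-deficient MSC libraries and 135, 145, 167 and 138 in wild-type MSC libraries. These were the widest fold changes of the list, 2.17 ± 0.18, adjusted p = 2.13e-05 in miR-9-1-deficient mice, and 2.0 ± 0.13, adjusted p = 1.70e-07 in wild-type mice, and no OB library came near the MSC range. Pes1 changed by 0.95 ± 0.16 in miR-9-1-deficient mice and 1.11 ± 0.09 in wild-type mice. Bop1 had 716, 868, 829 and 963 normalized counts in miR-9-1-deficient OB libraries, 846, 871, 927 and 966 in wild-type OB libraries, 445, 821, 497 and 460.3 in miR-9-1-deficient MSC libraries and 577, 656, 689 and 669 in wild-type MSC libraries, and deficient MSC library F stood above the 3 others and within the OB range. Its fold changes were 0.64 ± 0.20, adjusted p = 0.0202 in miR-9-1-deficient mice, and 0.48 ± 0.09, adjusted p = 6.15e-04 in wild-type mice, so the 3 partners of 1 complex ranged from 0.64 to 2.17 in miR-9-1-deficient mice. Rrs1, known in yeast for placing the 5S particle, changed by 1.26 ± 0.13 in miR-9-1-deficient mice and 1.84 ± 0.10 in wild-type mice. Nop2, an RNA methyltransferase, Nop16 and Mrto4 changed by 1.18 ± 0.18, 1.28 ± 0.15 and 1.44 ± 0.15 in miR-9-1-deficient mice, and by 1.30 ± 0.10, 1.48 ± 0.10 and 1.41 ± 0.12 in wild-type mice.

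Gnl3 and Ebna1bp2 had the smallest OB increases among large subunit factors in miR-9-1-deficient mice. Gnl3 changed by 0.48 ± 0.15, adjusted p = 0.0235 in miR-9-1-deficient mice, and 0.95 ± 0.07, adjusted p = 6.58e-07 in wild-type mice, and Ebna1bp2, a factor of early large subunit particles, by 0.35 ± 0.13, adjusted p = 0.0383 in miR-9-1-deficient mice, and 0.69 ± 0.13, adjusted p = 7.96e-04 in wild-type mice. In miR-9-1-deficient mice Gnl3 was lost without MSC library G or OB libraries G or H (adjusted p = 0.0518 to 0.0576). Ebna1bp2 was lost without MSC libraries G or H or OB libraries F, G or H (0.0717 to 0.105) and with the mouse as a block (0.0553). Bop1 was lost without MSC libraries E, G or H or OB library H (0.0504 to 0.0553).

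Levels per length of the annotated exons set the members far apart. In miR-9-1-deficient OB libraries Npm1 averaged 3619 normalized counts per kilobase, Ncl 3067, Nhp2 1215 and Ddx21 1203, and Wdr12 was the lowest at 45.5. The length is the union of all annotated exons, 11955 bases for Wdr12 and 10188 for Ncl, so this order depends on the annotation. Without division by length, Ncl (31250) was above Npm1 (9645) in those libraries, and Rrp9 (416) rather than Wdr12 (544) was the lowest. In wild-type MSC libraries Npm1 averaged 1260.0 per kilobase, Ncl 915 and Wdr12 12.2. Nop58 had 285 in miR-9-1-deficient OB, 259 in wild-type OB, 339 in miR-9-1-deficient MSC and 174 in wild-type MSC libraries. Over the members, the median coefficient of variation among 4 libraries was 9.16% in miR-9-1-deficient OBs, 4.97% in wild-type OBs, 13.8% in miR-9-1-deficient MSCs and 11.6% in wild-type MSCs.

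Among features that the list did not use, 6 of the 33 members carry annotated small nucleolar RNA genes within their span on the same strand (18.2%), as 215 of 13909 protein-coding genes tested do (1.55%). They are Nop56 with 5, Nop58 with 4, Ncl, Wdr43 and Gnl3 with 3 each, and Dkc1 with 1. The genotype fold change had a median of -0.02 over these 6 and -0.02 over the other members in OBs, and of 0.39 and 0.13 in MSCs. Within the 6, Nop58 was at 0.92 and Ncl at 0.07, so the group was not uniform. Counts here are of poly(A)-selected RNA, and the small RNAs themselves were not measured. Mrto4 has 2 annotated genes named as its copies, and reads shared with them may be counted at either place. Copies under other names were not searched for any member.

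The rest of the pathway was read from lists of other genes. In MSCs between genotypes, 0 of 12 other RNA polymerase I genes, 0 of 39 other small subunit genes, 0 of 47 other large subunit genes and 0 of 22 snoRNP assembly and exosome genes passed, with medians of 0.15, 0.19, 0.27 and 0.15. Of 79 cytosolic ribosomal protein genes 2 rose, Rpl37a (0.57 ± 0.11, adjusted p = 0.0455) and Rps27 (0.73 ± 0.15, adjusted p = 0.0495), and all 79 had a positive fold change (median 0.37). With quantile normalization 0 of them passed and with equal totals 9, and all 79 stayed positive in both. In OBs 0 genes of these 5 lists passed, and the ribosomal protein genes had a median of -0.03.

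Between cell types the same lists were mostly higher in OB libraries. Other small subunit genes were higher for 32 of 39 in miR-9-1-deficient and 36 of 39 in wild-type mice. Krr1, a processome protein, led them at 1.86 ± 0.10 and 2.14 ± 0.12. Other large subunit genes were higher for 40 and 45 of 47, among them Rrp15 (1.36 ± 0.12 and 1.94 ± 0.14). Other RNA polymerase I genes were higher for 9 of 12 in both genotypes, among them Twistnb, a polymerase subunit (1.35 ± 0.12 and 1.59 ± 0.10), and 1 was lower in miR-9-1-deficient mice, Taf1a, of the promoter selectivity factor (-1.23 ± 0.27, adjusted p = 0.00337). Of the snoRNP assembly and exosome genes 17 and 20 of 22 were higher, among them Exosc2 (1.38 ± 0.15 and 1.43 ± 0.10). In both genotypes 1 was lower, Znhit6, which helps to assemble box C/D particles (-0.87 ± 0.17 and -0.71 ± 0.17). Cytosolic ribosomal protein genes were higher for 76 and 79 of 79.

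Genes of dividing cells and of blood progenitors and erythroid cells were mostly higher in OB libraries, as the members were, and other blood cell markers mostly were not. All 25 cell cycle genes were higher in OB libraries in both genotypes, with medians of 2.29 and 1.87, and summed to 43313 to 59164 normalized counts in miR-9-1-deficient and 52168.5 to 59189 in wild-type OB libraries, against 10392 to 15825 and 13191 to 16919 in the MSC libraries of the same genotypes. Of 16 blood progenitor markers 12 passed as higher and 2 as lower in miR-9-1-deficient mice, and 11 as higher and 3 as lower in wild-type mice. All 12 erythroid markers were higher in both. Of 14 stroma markers 8 were lower in miR-9-1-deficient and 12 in wild-type mice, and 8 of 10 neutrophil markers were lower in both. B lineage markers were higher for 2 and lower for 1 of 9 tested in miR-9-1-deficient mice, and higher for 1 and lower for 8 of 12 in wild-type mice. Macrophage and monocyte markers were higher for 1 and lower for 4 of 9 in miR-9-1-deficient mice, and higher for 1 and lower for 6 of 10 in wild-type mice. Endothelial markers were higher for 4 and lower for 2 of 8 in miR-9-1-deficient mice, and higher for 4 and lower for 1 of 8 in wild-type mice. None of the progenitor or cell cycle genes was at 0 in all libraries of a group. The part of these genes in the increase of the members was not tested. In MSCs between genotypes, 1 of 25 cell cycle genes passed, Top2a, which fell (-0.93 ± 0.18, adjusted p = 0.0381), and the median of the 25 was -0.38. With equal totals 0 of the 25 passed.

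**Figure D5:**
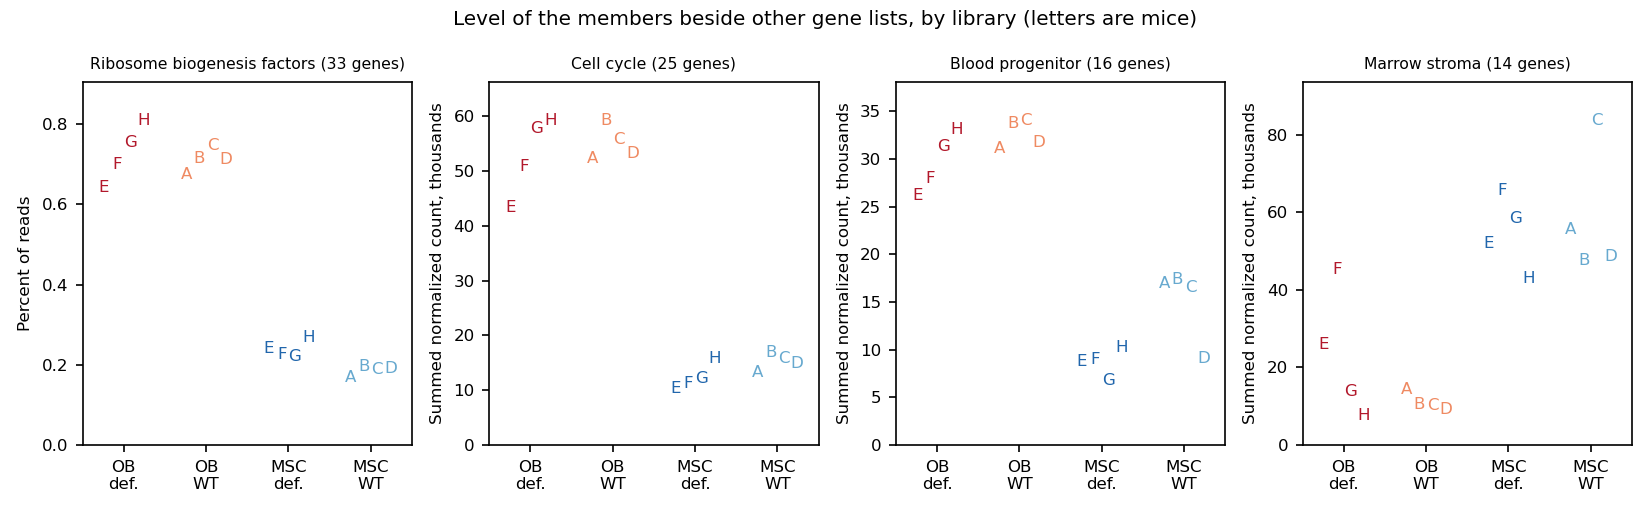
Share of reads in the 33 members, and summed normalized counts of cell cycle, blood progenitor and marrow stroma genes, for each library (letters are mice, "def." is miR-9-1-deficient). OB libraries are higher for the members, cell cycle and progenitor genes, and among deficient OB libraries H is highest and E lowest for all 3.

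Myc, a known activator of these genes, rose in miR-9-1-deficient MSCs, with 8204, 5500.3, 6259 and 5764 normalized counts in miR-9-1-deficient MSC libraries, against 3404, 3644, 2776 and 2319 in wild-type MSC libraries (1.09 ± 0.18, adjusted p = 0.027), and its groups did not overlap. Without wild-type MSC library B, or without G and H, 0 genes of the whole table passed, so the Myc call was lost there too. Myc was lower in OB than in MSC libraries (-1.81 ± 0.24 in miR-9-1-deficient and -1.09 ± 0.14 in wild-type mice), where most members were higher. The part of Myc in the levels of the members was not tested in either comparison. Rn45s, the gene of the ribosomal RNA precursor, lay at 67078 to 87076 in miR-9-1-deficient OB, 76121 to 81956 in wild-type OB and 87722 to 121015 in miR-9-1-deficient MSC libraries. These are reads left after poly(A) selection, and precursor and mature ribosomal RNA were not told apart. In wild-type MSC libraries it was 112511, 144405, 120420 and 449637, with library D far above the others.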

How the data were processed

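Poly(A)-selected RNA of sorted cells was prepared with TRIzol and a NEBNext Ultra RNA kit, per the labels' protocols, in 16 libraries. The deposited table holds normalized counts (a signal of gene counts divided by size factors) made by the authors with DESeq2 1.24.0 and mm10, per the submitters' processing notes; the aligner, counter, annotation and strand setting were not given in the sources used here. Whole reads were recovered from the steps of the values (tolerance 0.01 of a read) for 100% of values.

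Fold changes came from limma 3.58.1 (R 4.3.3, trended prior) on log2 of the normalized count plus a pseudocount of 1, over genes with at least 10 in at least 4 libraries, with Benjamini-Hochberg adjustment over all genes tested and a threshold of 0.05. All 33 members were above 10 in every library. A fold change on this scale understates the change of low genes. The script was tested on simulated data. edgeR 4.0.16 and DESeq2 1.42.0 on recovered reads were alternatives, beside other pseudocounts, filters and scalings and single libraries left out. The depth was 10148197 to 18962771 reads.

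The members and gene lists were chosen with earlier results of these data known. Values in every library are given for the 5 members with the smallest p in each comparison, for Npm1, Fbl, Ncl and Polr1a, and for up to 4 others; of other lists up to 4 passing genes per direction and comparison were named by adjusted p. Groups share animal numbers: over the 8 numbers, the OB and MSC deviations from the group means correlated at 0.0822 to 0.417. Each of the 8 MSC libraries correlated best with the OB library of its own number within its genotype, while OB libraries C and G correlated slightly better with another MSC library. The printed values come from fits without a block. A fit with the mouse, taken from the animal number, as a block was an alternative for the cell type comparisons and the difference.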

Additional observations from a re-analysis of the deposited data

Results flagged for a closer look

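In 8 of 148 groups of 4 libraries tested, 1 library lay apart from the other 3 by more than Dixon's 95% critical value, and chance flags about 1 in 20 groups. Among deficient OB libraries, mouse E was lowest for Nop56 at 1948.3 normalized counts and for Rrs1 at 1254.8. Among wild-type OB libraries, Wdr43 was lowest in A at 1804.6, Nop14 lowest in D at 644.59 and Pes1 highest in C at 1502.2. In deficient MSCs, Bop1 was highest in F at 820.92. In wild-type MSC library D, Utp18 was lowest at 363.67 and Rn45s, the gene of the ribosomal RNA precursor, highest at 449640. No explanation of these libraries was tested.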

How the results depend on the processing

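Members passing in MSCs between genotypes, 2 in the report, beside 1.06% of all genes, were 1 with quantile normalization, 6 with DESeq2 (7.89% of all genes), 11 with all 16 libraries in 1 fit (14.4%), 0 without mice G and H, 0 with the muscle level as a covariate, and 0 to 5 with single libraries left out. Chosen after seeing the data, they were 4 without mice E and F (6.95%) and 1 with the Ddx3y level as a covariate. The median was 0.26 with equal totals (also chosen after seeing the data), 0.27 without G and H, 0.25 with the muscle covariate and 0.16 to 0.28 with libraries left out. In OBs 0 members passed throughout, and the median was 0.069 without E and F. The OB over MSC median was 1.25 with quantile normalization, 1.60 with equal totals and 1.06 to 1.26 with libraries left out in miR-9-1-deficient mice, and 1.46, 1.90 and 1.36 to 1.44 in wild-type mice. In miR-9-1-deficient mice the sign turned for Nop58 (0.065 with quantile normalization, 0.24 with equal totals), Rrp9 (0.25 with equal totals) and Nop14 (0.029 with equal totals). The difference of effects had a median of -0.29 with quantile normalization and -0.30 to -0.15 with libraries left out, and passed for 2 members with DESeq2 (0.913% of all genes) and 0 to 3 with libraries left out. With mouse as a replicate block, 29 members passed in miR-9-1-deficient mice (28 of them shared with the unblocked fit), 31 in wild-type mice and 0 for the difference. Over 94 results of named members and 1810 alternatives, 1732 kept direction and side of the threshold, 33 lost a call, 41 gained one and 4 reversed. The cause was not tested.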
